A study of Homo sapiens with 38 samples.

Results

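MYC, its obligate partner MAX and the other basic helix-loop-helix leucine zipper factors of the MAX network were followed through exposure of lymphoma cells to histone deacetylase (HDAC) inhibitors. The group holds 9 genes, MYC, MAX, MXD1, MXD3, MXD4, MXI1, MNT, MLX and MGA, named by symbol, with no threshold on a measured value, and mapped to the Ensembl identifiers of the deposited count table. All 9 were in that table, of 18011 genes, and all 9 passed the filter on low counts in every comparison. RNA was sequenced from 6 established lymphoma lines, all human diffuse large B-cell lymphoma (OCILY1, PFEIFFER, SUDHL4, SUDHL6, TOLEDO and WSUDLCL2). The cells were kept in DMSO, the solvent, in pracinostat or in vorinostat, 2 hydroxamate HDAC inhibitors, for 6 h or for 14 d, in media with serum, antibiotics and glutamine. At 6 h there were 6 DMSO, 6 pracinostat and 5 vorinostat libraries, since SUDHL6 with vorinostat was not analysed here. At 14 d 5 lines, without SUDHL6, each gave 1 library of pracinostat, 1 of vorinostat and 1 of each of the DMSO sets titled DMSOP and DMSOV, read from their last letters as the controls of pracinostat and of vorinostat. The title of the series asks how lymphoma cells differ in sensitivity to these drugs. The labels state no dose, and no resistance or viability value was analysed here.

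MYC binds DNA only as a dimer with MAX, at E-box sequences, and recruits acetyltransferases and elongation factors to genes of ribosome building, metabolism and cell growth. MXD1, MXI1 (also called MXD2), MXD3, MXD4 and MNT compete with MYC for MAX, bind the same sites and bring in the SIN3 corepressor, which itself carries HDAC1 and HDAC2. MGA is a very large protein that joins MAX within the polycomb complex PRC1.6, and MLX is a MAX-like partner of the glucose-sensing factors MondoA (MLXIP) and ChREBP (MLXIPL) as well as of some MXD proteins. In B cells MYC drives the burst of growth that follows antigen encounter, and it is a common oncogene of lymphoma.

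The E-box CACGTG, which reads the same on both strands, was looked for in RefSeq promoter windows (GRCh38.p14, 250 bases before to 50 after each listed start). Windows were given for 8 of the 9 genes, 13 in all and none for MYC. The motif was found in 3 of them, 1 each for MXD4, MNT and MLX, against 7.256% of all 35116 windows. They are shown because they hold the motif. All 3 genes fell with pracinostat at 6 h, as described below. The windows of MAX, MXD1 and MXI1, which rose, of MGA, which fell, and of MXD3, which was not called, did not hold these letters. Motif and direction were set side by side after the values of these genes were seen. With vorinostat at 6 h only MLX of the 3 was called, and MXD4 rose with both drugs at 14 d. A link of the motif to direction was not tested. The stretches upstream of the first annotated base of each gene are given 5′ to 3′ on the gene's strand, with the motif in capitals, at chr4:2262295-2262359 (minus), chr17:2401119-2401310 (minus) and chr17:42566850-42567067 (plus).
MXD4: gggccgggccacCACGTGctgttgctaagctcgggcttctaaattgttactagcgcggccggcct
MNT: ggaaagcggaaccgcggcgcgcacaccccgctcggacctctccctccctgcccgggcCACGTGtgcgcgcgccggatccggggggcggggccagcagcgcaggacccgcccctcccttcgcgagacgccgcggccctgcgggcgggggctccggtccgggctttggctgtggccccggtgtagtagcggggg
MLX: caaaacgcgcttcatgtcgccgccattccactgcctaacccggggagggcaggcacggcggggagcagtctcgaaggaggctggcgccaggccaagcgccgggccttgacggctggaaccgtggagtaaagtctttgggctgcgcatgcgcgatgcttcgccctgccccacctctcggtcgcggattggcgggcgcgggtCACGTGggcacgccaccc
The motif begins 238, 193 and 50 bases before the RefSeq start of MXD4, MNT and MLX. A match of these letters is a description of the window and not a measured site.

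Library totals ran from 3.19 M to 8.92 M counts, and levels are in CPM, counts scaled to a library of 1 M. A gene with a count of 0 could have up to 0.336 to 0.941 CPM, depending on the library, for counting error only. Each treated library was set against the DMSO library of its own line, and lines served as replicates, with a single library for each combination. Nothing states that these libraries came from separate cultures. The p-values rest on the spread left after line and treatment, library noise included. That spread was estimated over all libraries of a fit together, and not from the differences of 1 drug alone. All 37 libraries were most like another library of the same line, and all 6 B-cell markers listed were detected in every library. The summed level of these markers had a median of 5575 CPM in DMSO at 6 h, 2552 CPM with pracinostat and 2528 CPM with vorinostat. At 14 d the medians were 3244 CPM in DMSOP, 6464 CPM with pracinostat, 3487 CPM in DMSOV and 4234 CPM with vorinostat. Mitochondrially encoded genes took 6.17 to 10.9% of counts in DMSO at 6 h and 6.45 to 12.0% in the DMSO libraries at 14 d. Their share was 11.1 to 17.0% with pracinostat and 10.5 to 17.5% with vorinostat at 14 d. Of 6 myeloid markers 3 were in the table (CD33, ITGAM and CSF1R), and their summed level was at most 1.65 CPM in DMSO at 14 d, 0.767 to 19.6 CPM with pracinostat and 1.10 to 37.0 CPM with vorinostat. Of 6 stromal markers 4 were in the table, with a summed level of 0.498 to 75.3 CPM in DMSO at 14 d and 8.63 to 110 CPM with the drugs, and it already ran from 0.222 to 119 CPM between lines in DMSO at 6 h. Markers of T and NK cells (3 of 6 in the table) summed to at most 2.94 CPM at 6 h, and at 14 d to at most 2.75 CPM in DMSO, 4.396 CPM with pracinostat and 3.24 CPM with vorinostat. In bulk RNA, fewer cells with a transcript and less of it per cell cannot be told apart.

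On GRCh38 (GENCODE 29) the genes lie on 8 chromosomes, and values below are for the whole gene, summed over exons. MYC (ENSG00000136997) spans chromosome 8, 127735434 to 127741434, on the plus strand, and MAX (ENSG00000125952) chromosome 14, 65006174 to 65102695, minus. MXD1 (ENSG00000059728) is at chromosome 2, 69897688 to 69942945, plus, MXI1 (ENSG00000119950) at chromosome 10, 110207605 to 110287365, plus, and MXD3 (ENSG00000213347) at chromosome 5, 177301461 to 177312757, minus. MXD4 (ENSG00000123933) is at chromosome 4, 2247432 to 2262294, minus, and MNT (ENSG00000070444) at chromosome 17, 2384060 to 2401118, minus. MGA (ENSG00000174197) lies at chromosome 15, 41621224 to 41773081, plus, and MLX (ENSG00000108788) at chromosome 17, 42567068 to 42573239, plus. MXD3 shares 22.5% of its exon bases with PRELID1 on the other strand and 18.0% with RAB24 on its own. MLX shares 18.1% with PSMC3IP and MNT 12.2% with AC006435.1, both on the other strand, and no other member shares over 5%. The library kit does not mark strand, so values of MXD3, MLX and MNT are uncertain by how the counting treated reads in these shared bases. Such reads may have been given to a neighbour or dropped, while CPM per kb below still divides by the full exon length.

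Levels between genes were compared as CPM per kb of exon. In DMSO at 6 h MYC stood at 115 ± 44.8 CPM per kb (SD, n = 6), far above every partner. MLX (16.1 ± 4.58) and MAX (15.0 ± 1.59) followed, and their means differed by less than their SDs. MXD4 (6.52 ± 4.55), MXI1 (5.65 ± 5.05) and MGA (4.37 ± 0.905) came next, each within an SD of its neighbour. The lowest were MXD1 (2.29 ± 1.41), MNT (2.29 ± 1.06) and MXD3 (1.45 ± 0.319), which also lay within an SD of each other. The lines differed most in MXI1, which ran from 3.93 CPM in WSUDLCL2 to 62.2 CPM in OCILY1 in DMSO at 6 h, and least in MAX, which ran from 56.4 to 76.0 CPM.

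**Figure D1:**
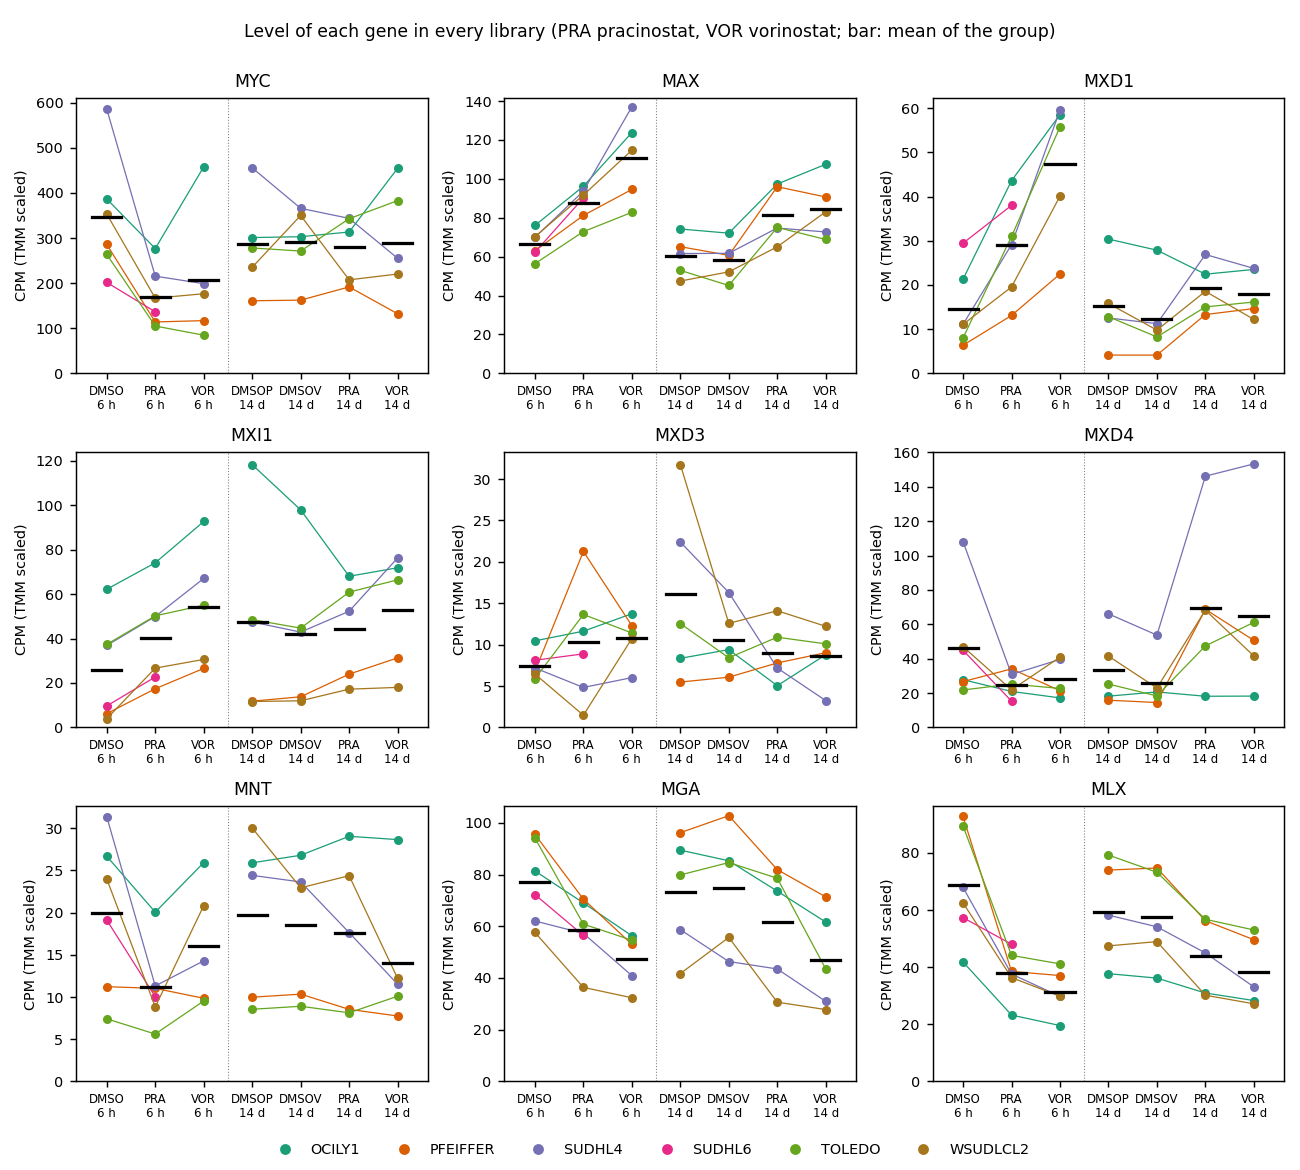
Level of each of the 9 genes in all 37 libraries, in CPM scaled by the trimmed mean of M-values, with 1 coloured point per line, thin lines joining libraries of a line at a time, and a black bar at the group mean. At 6 h MYC, MLX and MGA lie lower and MAX, MXD1 and MXI1 higher with drug in nearly every line, and at 14 d the MYC levels with and without drug overlap.

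After 6 h MYC transcript fell with both drugs. In DMSO MYC ran from 202 to 585 CPM with a median of 319 CPM, and with pracinostat from 105 to 277 CPM with a median of 152 CPM. With vorinostat it measured 458 CPM in OCILY1, 117 in PFEIFFER, 199 in SUDHL4, 84.7 in TOLEDO and 177 in WSUDLCL2. Pracinostat libraries were lower than the DMSO library of their line in 6 of 6 lines, and vorinostat libraries in 4 of 5, while in OCILY1 the vorinostat library was the higher one. The ranges of the groups overlapped, because lines with low MYC in DMSO lay below treated libraries of lines with high MYC. The log2 fold change was -1.07 (SE 0.19) with pracinostat (edgeR quasi-likelihood test with the line as block, Benjamini-Hochberg adjusted p = 0.000402) and -1.01 (SE 0.20) with vorinostat (adjusted p = 0.00093). The log2 difference per line was -1.44 in SUDHL4 and -1.33 in TOLEDO but -0.48 in OCILY1 and -0.56 in SUDHL6 with pracinostat. OCILY1 was thus the line with the least difference under both drugs, at 0.24 with vorinostat.

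MAX, the shared partner, rose. In DMSO it ran from 56.4 to 76.0 CPM with a median of 66.5 CPM, and with pracinostat from 72.9 to 96.2 CPM with a median of 90.9 CPM. With vorinostat the 5 libraries gave 124 CPM (OCILY1), 94.5 (PFEIFFER), 137 (SUDHL4), 82.8 (TOLEDO) and 115 (WSUDLCL2). All vorinostat values lay above all DMSO values, whereas the pracinostat range overlapped with the DMSO range. The log2 fold change of MAX was 0.40 (SE 0.09, edgeR adjusted p = 0.00186) and 0.71 (SE 0.09), with the same sign in every line. MYC and MAX therefore moved in opposite directions, and the ratio of MYC to MAX per kb had a median of 7.16 in DMSO, 2.46 with pracinostat and 2.14 with vorinostat. The 6 DMSO libraries (4.78 to 12.4) did not overlap with the 6 pracinostat libraries (2.07 to 4.25), and OCILY1 with vorinostat, at 5.46, stood inside the DMSO range.

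Among the antagonists MXD1 and MXI1 rose at 6 h with both drugs. MXD1, the founding MXD gene, which marks differentiating cells, ran in DMSO from 6.36 to 29.5 CPM (median 11.1 CPM) and with pracinostat from 13.1 to 43.6 CPM (median 30.0 CPM). With vorinostat it measured 58.6 CPM in OCILY1, 22.5 in PFEIFFER, 59.6 in SUDHL4, 55.8 in TOLEDO and 40.1 in WSUDLCL2. Each treated library was above its own DMSO library, and over the 5 lines with vorinostat the groups did not overlap. The log2 fold change of MXD1 was 1.05 (SE 0.18, edgeR adjusted p = 0.000329) with pracinostat and 1.94 (SE 0.19, adjusted p = 2.07e-06) with vorinostat, the largest of the 9 genes. MXI1, an antagonist studied as a candidate tumour suppressor, ran from 3.93 to 62.2 CPM in DMSO and from 17.4 to 74.1 CPM with pracinostat. Its vorinostat levels were 92.7 CPM in OCILY1, 26.6 in PFEIFFER, 67.1 in SUDHL4, 55.0 in TOLEDO and 30.6 in WSUDLCL2. The MXI1 difference was largest where its DMSO level was lowest, with log2 2.67 (pracinostat) and 2.87 (vorinostat) in WSUDLCL2 against 0.25 and 0.57 in OCILY1. Its fitted log2 fold change was 0.93 (SE 0.26, edgeR adjusted p = 0.0102) and 1.24 (SE 0.27, adjusted p = 0.00178).

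MXD4 and MNT, antagonists whose windows hold the E-box shown above, fell with pracinostat at 6 h. MXD4 ran from 21.8 to 108 CPM in DMSO (median 36.3 CPM) and from 15.3 to 34.0 CPM with pracinostat (median 23.5 CPM). It was lower in 4 of 6 lines, by log2 -1.80 in SUDHL4, -1.53 in SUDHL6, -1.09 in WSUDLCL2 and -0.40 in OCILY1, and slightly higher in PFEIFFER and TOLEDO. The fitted value was -0.72 (SE 0.26, edgeR adjusted p = 0.039). That call was lost without OCILY1 (adjusted p = 0.0664), SUDHL4 (0.175), SUDHL6 (0.131) or WSUDLCL2 (0.0885), and the value was -0.47 without SUDHL4. It was also lost with library totals (-0.61, adjusted p = 0.0883) and with only the 2 groups compared (-0.71, adjusted p = 0.0794). With vorinostat MXD4 gave -0.65 and did not pass the test (edgeR adjusted p = 0.0718), though it did without TOLEDO (-0.78, adjusted p = 0.0411). MNT, which is present in resting and growing cells alike, ran from 7.42 to 31.3 CPM in DMSO (median 21.5 CPM) and from 5.62 to 20.1 CPM with pracinostat (median 10.5 CPM). It was lower in 6 of 6 lines, and the fitted value was -0.78 (SE 0.21, edgeR adjusted p = 0.00756). Vorinostat gave MNT a value of -0.28 that did not pass the test, with TOLEDO at 0.35 and SUDHL4 at -1.12. MXD3, linked to dividing progenitor cells, had values of 0.33 and 0.52 and passed neither test. Its lines disagreed with pracinostat, from -1.92 in WSUDLCL2, where the treated library held 7 counts of MXD3, to 1.61 in PFEIFFER.

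MGA and MLX, which extend the network beyond MYC and its direct antagonists, fell with both drugs at 6 h. MGA ran from 57.6 to 95.5 CPM in DMSO (median 76.8 CPM) and from 36.4 to 70.5 CPM with pracinostat (median 59.0 CPM). With vorinostat MGA measured 56.3 CPM in OCILY1, 53.0 in PFEIFFER, 40.9 in SUDHL4, 54.6 in TOLEDO and 32.3 in WSUDLCL2, all below every DMSO library. MGA gave fitted values of -0.41 (SE 0.09, edgeR adjusted p = 0.00289) and -0.73 (SE 0.10, adjusted p = 4.17e-05). MLX ran from 41.8 to 92.8 CPM in DMSO (median 65.2 CPM) and from 23.3 to 48.0 CPM with pracinostat (median 38.1 CPM). Its vorinostat libraries gave 19.6 CPM (OCILY1), 37.1 (PFEIFFER), 29.8 (SUDHL4), 41.2 (TOLEDO) and 29.8 (WSUDLCL2), again below every DMSO library. The log2 fold change of MLX was -0.84 (SE 0.12, edgeR adjusted p = 5.05e-05) and -1.11 (SE 0.13, adjusted p = 5.66e-06). With vorinostat MLX was alike in all 5 lines, from -1.32 to -1.06, and with pracinostat SUDHL6 moved least at -0.25.

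**Figure D2:**
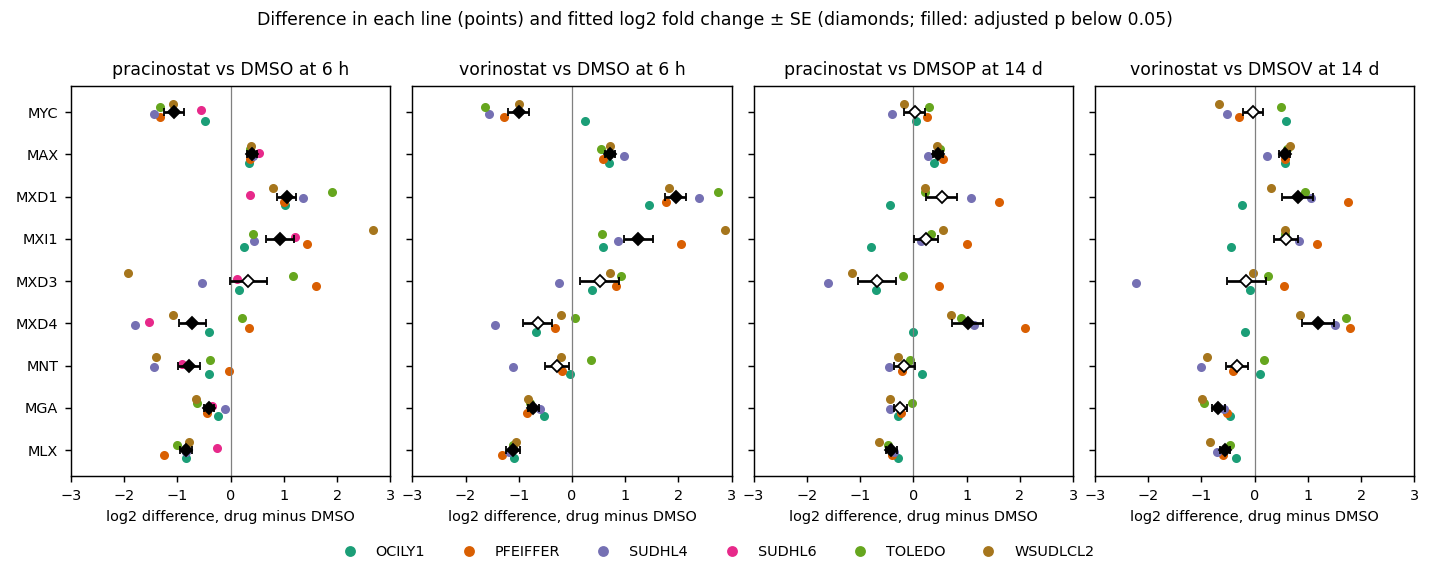
Log2 difference between drug and DMSO in each line (coloured points) and the fitted log2 fold change with its SE (black diamonds, filled where the adjusted p was below 0.05), for the 9 genes in 4 comparisons. MAX, MGA and MLX keep their side in all lines of all 4 comparisons. They have the tightest points, except that MLX spreads from -1.26 to -0.25 with pracinostat at 6 h. The MYC diamond sits near -1 at 6 h and at 0 at 14 d.

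At 6 h, 8 of the 9 genes were called with pracinostat (3 higher, 5 lower) and 6 with vorinostat (3 higher, 3 lower). These counts stand beside a background of 40.1% of all 13177 genes called with pracinostat and 43.9% with vorinostat, of which 21.2% and 23.1% were higher and 18.9% and 20.9% lower. The median log2 fold change of the 9 genes was -0.41 and -0.28, beside 0.03 and 0.02 over all genes tested. With library totals in place of the trimmed mean of M-values, 64.8% of the pracinostat calls were rises in place of 52.8%, and no member's call turned its direction. Both drugs were set against the same DMSO libraries at 6 h, so their values share that control. The deposited column names add V to DMSO at 6 h in OCILY1, SUDHL4, SUDHL6 and WSUDLCL2 and P in PFEIFFER and TOLEDO. Read as at 14 d, pracinostat at 6 h was set against the solvent set of vorinostat in 4 of 6 lines, and vorinostat against that of pracinostat in 2 of 5.

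At 14 d no difference of MYC from DMSO was detected. Its levels were 301 CPM (OCILY1), 161 (PFEIFFER), 456 (SUDHL4), 278 (TOLEDO) and 235 (WSUDLCL2) in DMSOP, and 313, 192, 344, 343 and 207 CPM in the same order with pracinostat. The DMSOV libraries gave 303, 162, 366, 271 and 350 CPM and the vorinostat libraries 454, 132, 255, 383 and 220 CPM. MYC was higher in 3 of 5 lines with pracinostat and in 2 of 5 with vorinostat, and all groups overlapped. The log2 fold change was 0.02 (SE 0.19, edgeR adjusted p = 0.942, 95% interval -0.38 to 0.43) and -0.03 (SE 0.19, adjusted p = 0.907, interval -0.44 to 0.37). The largest difference in a line was -0.67, in WSUDLCL2 with vorinostat, and the DMSOP and DMSOV libraries of that line differed by -0.57. With vorinostat the other lines were at 0.58 (OCILY1), 0.50 (TOLEDO), -0.52 (SUDHL4) and -0.30 (PFEIFFER). Their gaps between DMSOP and DMSOV were -0.01, 0.04, 0.32 and -0.01 in that order.

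MAX stayed higher and MLX lower at 14 d. MAX measured 74.2, 65.1, 61.6, 53.0 and 47.5 CPM in DMSOP (OCILY1, PFEIFFER, SUDHL4, TOLEDO and WSUDLCL2) and 97.3, 96.0, 74.7, 75.0 and 65.1 CPM with pracinostat. In DMSOV it gave 72.1, 60.7, 61.7, 45.2 and 52.2 CPM and with vorinostat 107, 90.7, 72.7, 68.8 and 83.1 CPM. Every treated library was above its own DMSO library, with some overlap between lines, and the log2 fold change was 0.46 (SE 0.10, edgeR adjusted p = 0.00433) and 0.56 (SE 0.10, adjusted p = 0.000474). MLX fell from 37.7, 74.0, 58.2, 79.3 and 47.5 CPM in DMSOP to 31.0, 56.3, 45.0, 56.8 and 30.2 CPM with pracinostat, a log2 fold change of -0.41 (SE 0.10, edgeR adjusted p = 0.00808). With vorinostat MLX gave 28.3, 49.6, 33.1, 53.0 and 27.2 CPM against 36.2, 74.7, 54.2, 73.2 and 49.0 CPM in DMSOV, a log2 fold change of -0.56 (SE 0.10, adjusted p = 0.00053). All 5 lines had the lower MLX value with either drug. MGA was also lower in all 5 lines with each drug, and it passed the test with vorinostat (-0.68, SE 0.12, edgeR adjusted p = 0.000675) but not with pracinostat (-0.25, adjusted p = 0.146).

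MXD4, which had fallen with pracinostat at 6 h, rose with both drugs at 14 d. In DMSOP MXD4 measured 18.2, 15.8, 66.1, 25.2 and 41.5 CPM and with pracinostat 18.1, 68.7, 146, 47.4 and 68.2 CPM, in the same order of lines. In DMSOV it gave 20.6, 14.5, 53.7, 18.3 and 22.9 CPM and with vorinostat 18.2, 50.6, 153, 61.1 and 41.5 CPM. It was higher in 4 of 5 lines with each drug, and OCILY1 did not share the rise, with 18.1 CPM against 18.2 CPM and with a log2 difference of -0.18. In WSUDLCL2 DMSOP stood above DMSOV by 0.845, beside drug differences of 0.714 (pracinostat) and 0.847 (vorinostat). That gap was below both drug differences in PFEIFFER (0.13), SUDHL4 (0.30) and TOLEDO (0.46). SUDHL4 gave the highest MXD4 level of each group at 14 d, and PFEIFFER the largest difference, at 2.10 and 1.78. The fitted log2 value was 1.02 (SE 0.29, edgeR adjusted p = 0.0209) with pracinostat and 1.19 (SE 0.30, adjusted p = 0.00563) with vorinostat. Without PFEIFFER, SUDHL4 or TOLEDO the pracinostat call was lost (adjusted p = 0.118, 0.0908 and 0.0545), and without PFEIFFER the value was 0.75. MXD1 passed the test with vorinostat (0.81, SE 0.30, edgeR adjusted p = 0.042). That call was lost without PFEIFFER (0.54, adjusted p = 0.151), SUDHL4 (0.151), TOLEDO (0.138) or WSUDLCL2 (0.0644). It was also lost with library totals (0.69, adjusted p = 0.0774), with only the 2 groups compared (0.83, adjusted p = 0.0931) and with the mean of both DMSO sets as control (0.63, adjusted p = 0.0507). With pracinostat MXD1 gave 0.54 and was not called, though it was with that mean control (0.71, edgeR adjusted p = 0.035). OCILY1 had the lower MXD1 value with each drug, at -0.43 and -0.24. MXI1 (0.23 and 0.58), MNT (-0.17 and -0.33) and MXD3 (-0.68 and -0.16) were not called, MXI1 with vorinostat at an edgeR adjusted p of 0.053. Without OCILY1, the line with lower MXI1 under each drug, MXI1 was called with pracinostat (0.52, edgeR adjusted p = 0.0422) and with vorinostat (0.84, adjusted p = 0.00169). The vorinostat value was also called with DESeq2 (0.61, adjusted p = 0.0334) and with the mean DMSO control (0.54, adjusted p = 0.0335).

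In all, 3 of the 9 genes were called with pracinostat at 14 d (2 higher, 1 lower) and 5 with vorinostat (3 higher, 2 lower). The background was 22.6% of all 14037 genes with pracinostat (12.3% higher, 10.2% lower) and 37.6% with vorinostat (20.4% higher, 17.2% lower). The median of the 9 genes was 0.02 and -0.03, beside 0.07 and 0.12 over all genes. Scaling by library totals brought the median of all genes with vorinostat from 0.12 to 0.01 and the share of rises among its calls from 54.3% to 44.0%. The mitochondrial shares and the myeloid and stromal levels given above reached higher values with drug at 14 d than in the DMSO sets, as did those of T and NK cells, and their part in these results was not tested. The DMSO sets themselves, DMSOP against DMSOV, gave none of the 9 genes called by edgeR, none at an unadjusted p under 0.05 and none with DESeq2 or limma, against a background of 0% (83 of 14037 genes at an unadjusted p under 0.05).

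Whether an effect at 14 d differed from that at 6 h was tested as an interaction. It did for MYC, whose effect was 1.07 log2 units (SE 0.28) higher at 14 d than at 6 h for pracinostat (edgeR interaction, adjusted p = 0.00883) and 0.94 (SE 0.30, adjusted p = 0.0214) for vorinostat. The vorinostat call of MYC was lost without PFEIFFER (adjusted p = 0.0636), SUDHL4 (0.0569) or TOLEDO (0.198), where the value was 0.64 without TOLEDO, and with library totals (0.77, adjusted p = 0.0632). MXD4 had the largest change, of 1.72 (SE 0.41, adjusted p = 0.0048, lost without SUDHL4 at 0.0516) and 1.81 (SE 0.43, adjusted p = 0.00334), from a negative to a positive fitted value. Its 6 h value with vorinostat had not been called. Per line the sign changed with pracinostat in SUDHL4 (-1.80 to 1.14) and WSUDLCL2 (-1.09 to 0.71). With vorinostat it changed in those lines and in PFEIFFER (-0.31 to 1.78). The other lines seen at both times kept their sign. MLX lost part of its fall, by 0.40 (SE 0.14, adjusted p = 0.0474) and 0.52 (SE 0.15, adjusted p = 0.0126). The pracinostat call of MLX was lost on leaving out any of the 5 lines seen at both times (adjusted p 0.0642 to 0.179), and the vorinostat call on leaving out OCILY1 (0.0819), PFEIFFER (0.0519) or TOLEDO (0.0723). Library totals also lost both MLX calls (0.26, adjusted p = 0.22, and 0.35, adjusted p = 0.0879), and the pracinostat call was lost without a filter on low counts (0.38, adjusted p = 0.0778) and with limma (0.38, adjusted p = 0.0663). MXD1 had a smaller vorinostat effect at 14 d, by -1.19 (SE 0.36, adjusted p = 0.0183), which was lost without OCILY1 (0.0644), SUDHL4 (0.0693), TOLEDO (0.0733) or WSUDLCL2 (0.0573). MAX and MGA were not called, MAX with 95% intervals of -0.21 to 0.29 and -0.44 to 0.08, and MGA with -0.17 to 0.44 and -0.31 to 0.34. So 3 genes were called for pracinostat, all with the higher value at 14 d, and 4 for vorinostat (3 higher, 1 lower), against 19.4% and 23.4% of 15420 genes. Without SUDHL4 1 was called for pracinostat, and without TOLEDO 1 for vorinostat. Scaling by library totals moved the all-gene median of these interactions from 0.06 to -0.09 (pracinostat) and from 0.09 to -0.07 (vorinostat), and the share of calls with the higher value at 14 d from 49.2% to 30.7% and from 47.8% to 32.8%.

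**Figure D3:**
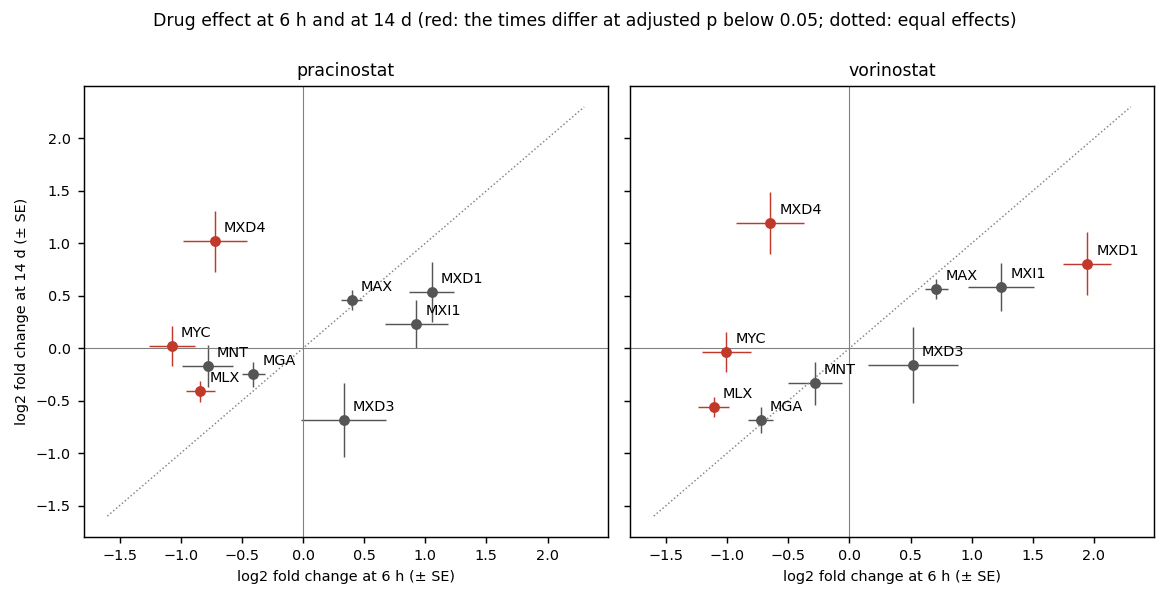
Fitted log2 fold change of each gene at 6 h (horizontal axis) and 14 d (vertical axis) for pracinostat and vorinostat, with SE bars, a dotted line of equal effects and red points where the times differed at an adjusted p below 0.05. MYC lies at -1.07 and -1.01 on the 6 h axis and near 0 on the 14 d axis. MXD4 changes side in its fitted value, though not in every line, and MAX and MGA lie near the line of equal effects.

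The balance of antagonists to MYC was described as the summed CPM per kb of MXD1, MXD3, MXD4, MXI1 and MNT over that of MYC, with no test. In DMSO at 6 h the ratio ran from 0.0917 to 0.251 (median 0.159), with pracinostat from 0.239 to 0.647 (median 0.341) and with vorinostat from 0.245 to 0.966 (median 0.407). It was higher with drug in each line that had the pair, with the highest values in TOLEDO (0.165 in DMSO, 0.647 and 0.966 with the drugs). The sum itself was lower with pracinostat in SUDHL4 (30.1 to 22.0 CPM per kb) and SUDHL6 (16.9 to 16.0). In WSUDLCL2 it was nearly level (13.25 to 13.27). The sum was higher with pracinostat in OCILY1, PFEIFFER and TOLEDO, and with vorinostat in every line measured. PFEIFFER went from the lowest DMSO ratio, 0.0917, to 0.423 with pracinostat and 0.407 with vorinostat, and OCILY1 from 0.201 to 0.330 and 0.245. At 14 d the medians were 0.211 in DMSOP, 0.306 with pracinostat, 0.180 in DMSOV and 0.225 with vorinostat. The ratio was lower with each drug in OCILY1 (0.375 to 0.241 and 0.332 to 0.177) and higher in the other 4 lines. In WSUDLCL2 the vorinostat ratio, 0.211, was above that of DMSOV (0.107) but below that of DMSOP (0.262). The make-up of the sum differed as well. MXD4 held a median of 40.5% of it in DMSO at 6 h, 17.8% with pracinostat and 17.3% with vorinostat, and at 14 d 28.7% in DMSOP, 44.2% with pracinostat, 25.5% in DMSOV and 37.9% with vorinostat. These are transcript ratios, and no protein was measured.

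**Figure D4:**
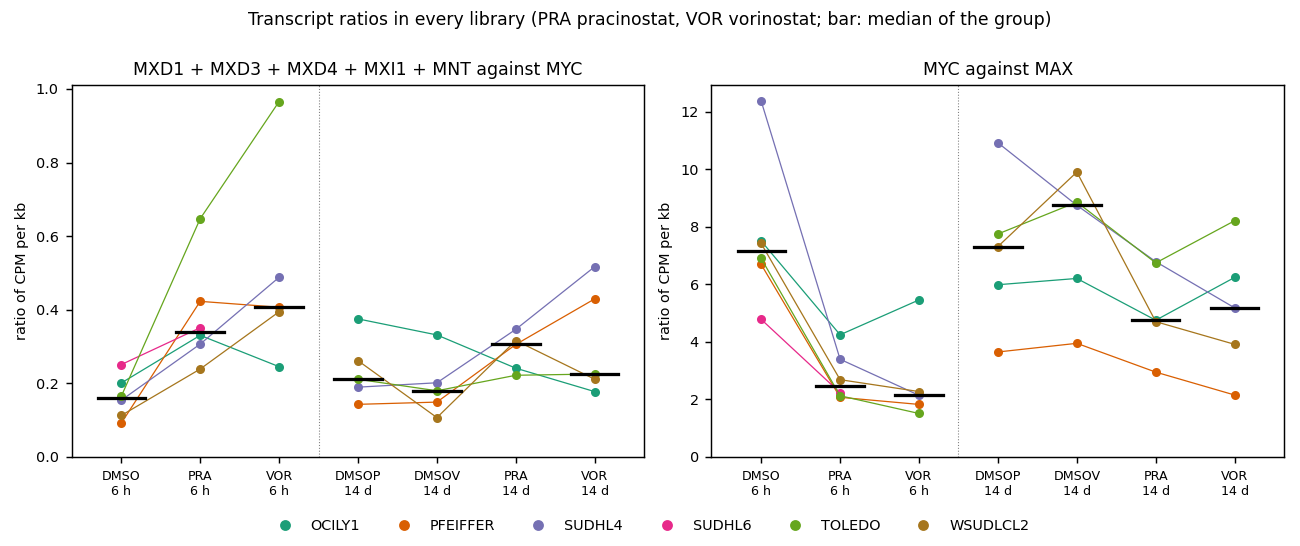
Ratio of the summed antagonists to MYC (left) and of MYC to MAX (right), both in CPM per kb, in every library, coloured by line with the median of each group as a bar. At 6 h the left ratio is higher with drug in every line, TOLEDO with vorinostat reaching 0.966, and the right ratio has a median of 7.16 in DMSO and 2.46 and 2.14 with the drugs.

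Pracinostat and vorinostat, both hydroxamates, were then compared with each other over the 9 genes, with p-values adjusted over all genes; whether their unstated doses match is not known. At 6 h none of the 9 was called by edgeR, 5 had an unadjusted p under 0.05, and the background was 0.0152% of 13177 genes (1214 at an unadjusted p under 0.05). MXD1 came nearest, with a pracinostat value 0.89 log2 units below that of vorinostat (95% interval -1.28 to -0.51, edgeR adjusted p = 0.1997). DESeq2 called it (adjusted p = 0.00842), alone among the 9, and limma called none. MAX differed by -0.31 (interval -0.51 to -0.12), MGA by 0.32 (0.10 to 0.53), MLX by 0.27 (0.00 to 0.54) and MNT by -0.50 (-0.97 to -0.03), none past the adjusted threshold. For MYC the difference was -0.07, with an interval of -0.49 to 0.36, which leaves room for a difference of either sign. At 14 d the effects of the drugs, each against its own DMSO set, gave no call among the 9 by edgeR, 1 at an unadjusted p under 0.05 (MGA, 0.43, interval 0.06 to 0.80) and none by DESeq2 or limma. The background there was 0% of genes, with 552 of 14037 at an unadjusted p under 0.05, and MYC gave an interval of -0.51 to 0.63.

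Relatives, cofactors and targets of the network were read from lists drawn up by function. Their counts stand beside a background, over all genes tested, of 21.2% higher and 18.9% lower with pracinostat and 23.1% higher and 20.9% lower with vorinostat at 6 h, and of 12.3% and 10.2%, and 20.4% and 17.2%, at 14 d. No list was tested against that background. Of MYCN, MYCL, MLXIP and MLXIPL, MYCL and MLXIP could be tested. MYCL, a paralogue of MYC that also pairs with MAX, was named after its values were seen. It was near the floor in DMSO at 6 h (0.421 to 1.31 CPM, 3 to 8 counts) and measured 2.73 to 6.75 CPM with pracinostat and 2.05 to 5.32 CPM with vorinostat, in groups that did not overlap. Its log2 fold change was 2.45 (SE 0.24) and 2.27 (SE 0.25), both called, and at 14 d MYCL was called with neither drug. MLXIP rose with vorinostat at 6 h (0.78) and 14 d (0.75), most in TOLEDO, where it went from 117 to 315 CPM at 6 h and from 123 to 388 CPM at 14 d, and at 14 d it was lower than DMSOV in WSUDLCL2 (63.8 against 78.3 CPM). MLX, its partner, fell in the same libraries.

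Among 46 genes that MYC is known to activate, falls outnumbered rises in all 4 comparisons. At 6 h 22 were called lower under pracinostat and 24 under vorinostat, and at 14 d, where MYC itself was not called, 18 and 24, with a single rise each time, where the all-gene share called lower was 18.9%, 20.9%, 10.2% and 17.2%. The list's median was -0.32 and -0.32 at 6 h and -0.41 and -0.62 at 14 d, beside 0.03, 0.02, 0.07 and 0.12 over all genes. TERT, the telomerase subunit, fell by 1.37 and 1.65 on the log2 scale at 6 h and by 2.40 and 4.01 at 14 d, and DKC1, a ribosomal RNA modifier, fell by 1.30 with vorinostat at 6 h. E2F2, a cell cycle factor, fell by 1.59 and 1.92 at 14 d. The 1 gene that rose was the cyclin CCND2 in each comparison (2.64, 2.45, 3.04 and 3.20), named after its values were seen. Its mean log2 CPM was below 2 each time, so these rises rest on low counts. Of 12 tested genes that MYC represses, 6 and 7 rose at 6 h (all genes 21.2% and 23.1%) and 1 fell. Among the rises were CDKN2B by 3.06 and 3.43 and CDKN1A, which encodes p21, by 2.06 and 2.22. The integrin ITGAL was the gene that fell (-1.56 and -1.88). At 14 d 2 and 4 of 13 rose (all genes 12.3% and 20.4%), CDKN1A by 2.08 and 3.13.

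Of 20 cofactors of MYC 11 fell with each drug at 6 h (all genes 18.9% and 20.9%), TFAP4, itself a MYC target, with log2 fold changes of -2.23 and -2.18, and HCFC1, a chromatin adaptor that binds MYC, with -2.02 and -2.05. None rose with pracinostat and 1 (SUPT5H, 0.33) with vorinostat. At 14 d pracinostat left 4 lower and 1 higher (all genes 10.2% and 12.3%), and vorinostat 10 lower and 2 higher (all genes 17.2% and 20.4%), where HCFC1 fell by 0.79. Of 22 factors known to control MYC transcription 12 and 11 fell at 6 h and 1 rose in each, STAT3 (0.87 and 1.31). IKZF3, the B-cell factor Aiolos, fell by 1.43 and 1.82 and CTCF, an insulator protein, by 1.19 and 1.40. At 14 d 3 and 4 fell, CTCF by 0.56 and 0.95, and 1 and 3 rose, PRDM1, which silences MYC in plasma cells, by 1.82 with vorinostat. These falls were near the 10.2% and 17.2% of all genes called lower, and the rises were below the 12.3% and 20.4% called higher. Genes of MYC protein turnover were mixed, with 2 higher and 3 lower of 21 under pracinostat and 6 and 3 under vorinostat at 6 h, where 21.2% and 23.1% of all genes were higher. FBXW7, the ligase that marks MYC for decay, rose by 0.54 and 0.87. USP28, which opposes it, rose by 0.74 with pracinostat at 6 h and fell by 0.74 and 1.07 at 14 d, where AURKA, a kinase that shields MYC proteins, fell with both drugs, by 1.71 with vorinostat. That list counted 4 falls and no rise for pracinostat at 14 d (all genes 10.2% and 12.3%), and 9 falls and 3 rises for vorinostat (all genes 17.2% and 20.4%).

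The SIN3 corepressor, through which MXD and MNT proteins silence genes, had 4 and 6 of 18 genes higher at 6 h, where 21.2% and 23.1% of all genes were, so the pracinostat count was near the background. In each 1 fell, RBBP4 (-0.44 and -0.62). SAP30 rose by 0.88 and 0.90, and SAP130 by 0.99 with vorinostat. At 14 d none rose, 4 fell with pracinostat, SAP30 by 0.82 among them, and 5 with vorinostat, SIN3A, the scaffold, by 0.57 (all genes 10.2% and 17.2% lower). The PRC1.6 complex that holds MGA had 4 of 16 lower and 1 higher with pracinostat at 6 h, near the 18.9% of all genes called lower, and 8 lower and 3 higher with vorinostat (all genes 20.9% lower). L3MBTL2, its methyl-lysine reader, fell by 1.21 and 1.33, and RYBP rose by 0.49 and 0.64. At 14 d 6 and 8 fell (all genes 10.2% and 17.2%), PCGF6, its ring finger subunit, by 0.93 and 1.00, and 1 rose in each, RING1 by 0.65 and 0.91. Germline genes that MGA and PRC1.6 keep silent were mostly too low to test. Of 20 listed, 6 were tested at 6 h (2 higher and 1 lower with each drug, the piRNA-pathway gene TDRKH by 0.96 and 1.05) and 7 at 14 d (2 and 1 higher). Of 6 tested genes that MLX and MondoA control, 2 rose at 6 h with each drug, TXNIP, a brake on glucose uptake, by 0.64 and 0.76 and KLF10 by 0.53 and 0.72. HK2, a hexokinase, was the 1 that fell in each of the 4 comparisons, by 1.25, 0.91, 0.77 and 1.55. At 14 d 2 and 3 rose, the arrestin ARRDC4 by 2.43 and 1.63. HDAC1, HDAC2, WDR5 and TXNIP are each in more than one of these lists, and TXNIP counts among the rises of the MYC-repressed genes too.

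**Figure D5:**
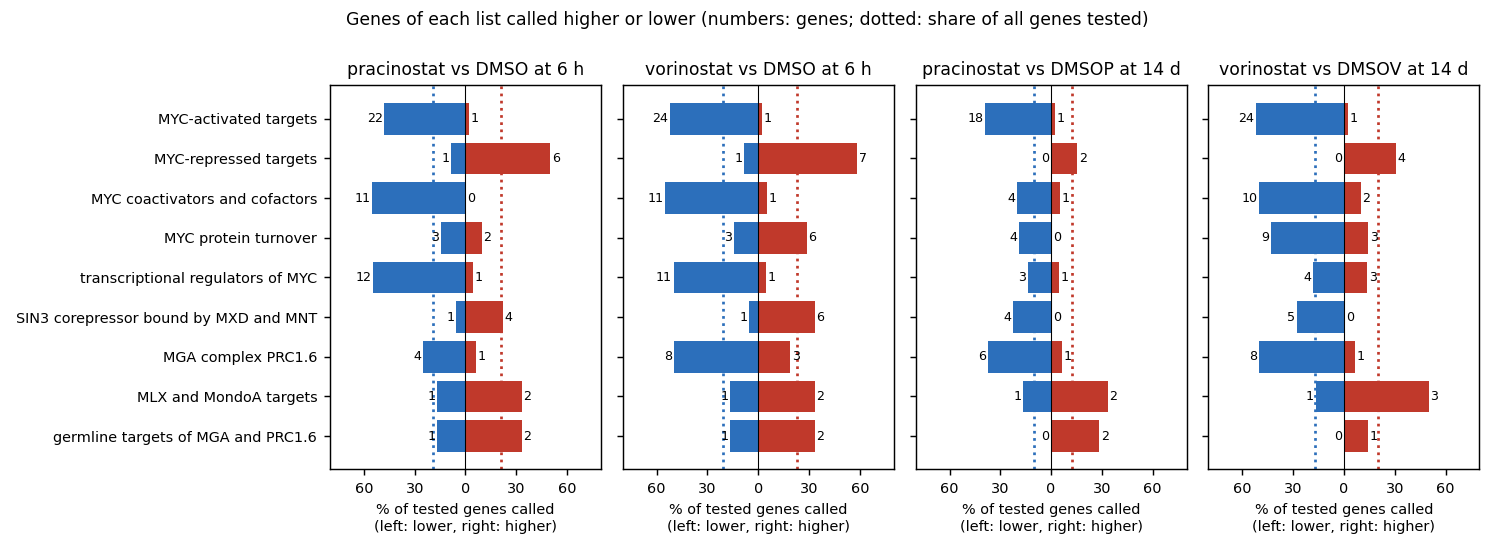
Share of the tested genes of each list called lower (blue, to the left) or higher (red, to the right) in the 4 comparisons, with the number of genes at the bar's end and dotted lines at the share of all genes called in that direction. The blue bar of the MYC-activated genes holds 22, 24, 18 and 24 of 46 genes, and the SIN3 bars hold 4 and 6 rises at 6 h and 4 and 5 falls at 14 d.

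The genes whose pattern was most like that of each member were found by Pearson correlation over 37 libraries, after the mean of each line and time was taken off, among 10184 genes whose mean log2 CPM was 2 or more. These are descriptions, since libraries share lines, DMSO sets and treatments. MYC was most like ANKMY1 (r = 0.84), TMEM250 (0.83), ATXN7L3 (0.83) and ZNF692 (0.82), and least like CCNG1 (-0.82) and BNIP3L (-0.80). The closest gene was MSL1 for MLX (0.95), WDR37 for MXD1 (0.94), ZNF24 for MGA (0.93), POLD4 for MXD4 (0.93), ITGB1 for MXI1 (0.91), GABBR1 for MAX (0.91), QPCTL for MNT (0.83) and LIPE for MXD3 (0.79). Within the network MLX and MGA went together (0.86), as did MAX with MXD1 (0.76), and MLX ran against MAX (-0.86). MXD4 and MXD3 were close to no other member apart from MXD3 with MNT (0.55), and MXD4 stayed between -0.26 and 0.24 with all others.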

How the data were processed

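The deposited raw table holds whole read counts per gene for 37 libraries, of 38 samples listed, and the deposited normalized table holds log2 CPM. Both were made by the authors, with STAR, edgeR and hg38 per the submitters' processing notes, with their versions, the annotation and the strand setting not stated there. Per the labels' protocols, Trizol RNA and 1 µg of total RNA went into the TruSeq kit. The deposited log2 values were recomputed from the counts to within 4.99e-06. A further sample labelled SUDHL4, vorinostat, 14 d was not analysed here.

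Identifiers were matched to GENCODE 29 (17859 of 18011 genes). The test was that of edgeR 4.0.16 (R 4.3.3), with TMM (trimmed mean of M-values) factors, filterByExpr (minimum count 10, total 15), robust quasi-likelihood fits and the line as block. Same-line libraries are paired by the line itself. Each time was fitted apart, and the interactions in 1 fit with line and time as block. All treatments of a fit shared 1 estimate of the spread. DMSOP was paired with pracinostat and DMSOV with vorinostat, a reading of the titles. Genes were called at a Benjamini-Hochberg adjusted p under 0.05 over all genes tested. Differences per line used a prior count of 2. Named list genes are up to 2 rises and 2 falls per list and comparison among called genes whose mean log2 CPM is 2 or more, and the text gives a part of them. MYCL and CCND2, which lay below that level, were named outside this rule. DESeq2 1.42.0 and limma 3.58.1 were alternatives. The fits were also run on simulated counts with the same fold change in every line. That run cannot show how the p-values behave where lines differ in their response. The members and lists were chosen with earlier results of these data known.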

Additional observations from a re-analysis of the deposited data

Results flagged for a closer look

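Sets of 5 or 6 libraries or lines were screened for a value far from the rest, 108 sets in all (63 of levels, 45 of differences per line), and 5 were picked out, where chance picks about 1 in 20. MXD3 stood low in SUDHL4 with vorinostat at 14 d, at 3.24 CPM against 8.78 to 12.2 CPM in the other 4 lines. Its log2 difference from DMSOV there was -2.23 against -0.09 to 0.55. The MXD3 value rests on 9 counts in a library of 3.19 M counts. MAX in the same library differed from DMSOV by 0.23, against 0.57 to 0.67 in the other lines. MGA was low in WSUDLCL2 with pracinostat at 6 h, at 36.4 CPM against 56.4 to 70.5 CPM. MNT was higher in DMSOP than in DMSOV by 0.38 in WSUDLCL2, against -0.06 to 0.05 in the others.

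The interaction of drug and time picked out 7 results, as differences between the effect at 14 d and at 6 h. For pracinostat they were MYC (1.07), MXD4 (1.72) and MLX (0.40), and for vorinostat MYC (0.94), MXD1 (-1.19), MXD4 (1.81) and MLX (0.52). The shares of mitochondrial counts and the myeloid marker levels differed with drug at 14 d in the same libraries, and their part was not tested.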

How the results depend on the processing

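Of 29 calls of the 9 genes, 29 held with DESeq2, 28 with limma, 28 without a filter on low counts and 24 with library totals, and 20 of 22 held with only the 2 groups compared. With the mean of both DMSO sets as control 14 of 15 held. Depth limits what MXD3 and MYCL, the least abundant, can show.

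Without the replicate block, that is with lines unpaired, 5 of 29 calls held. The members called were then 1 for pracinostat at 6 h and 0 for each drug at 14 d and for each interaction. MYC gave -1.04 (edgeR adjusted p = 0.144) and -0.76 (adjusted p = 0.286) at 6 h, -0.0075 and 0.022 at 14 d and -0.030 between the drugs at 14 d, and MXI1 -0.074 with pracinostat at 14 d. All genes called without the block were 577 in place of 5289 (pracinostat) and 1106 in place of 5790 (vorinostat) at 6 h, 8 in place of 3167 and 696 in place of 5274 at 14 d, and 75 in place of 2986 and 252 in place of 3605 for the interactions.

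Library totals gave MYC -0.046 with pracinostat at 14 d, 2 members called for the vorinostat interaction, and interactions of -0.11 (MAX) and -0.014 (MGA) for pracinostat and -0.14 (MGA) for vorinostat. The latter was -0.022 without a filter and -0.031 with limma. With the mean DMSO control MYC with pracinostat at 14 d was -0.0026 and the MXD1 difference between drugs 0.073. DESeq2 called 1 member between the drugs at 6 h. These reversed values were near 0 and none was called, and the cause was not tested.

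Leaving out a line, MYC at 14 d ran from -0.073 to 0.13 (pracinostat) and from -0.21 to 0.12 (vorinostat), and between the drugs from -0.16 to 0.15 at 6 h and from -0.061 to 0.23 at 14 d. MXD3 with vorinostat at 14 d ran from -0.37 to 0.19. Interactions ran from -0.0019 to 0.098 (MAX, pracinostat), -0.17 to 0.034 (MNT, vorinostat) and -0.051 to 0.052 (MGA, vorinostat), and members called from 1 to 3 and from 1 to 4. For all genes, pracinostat at 14 d called 1970, 1424 and 1793 without OCILY1, PFEIFFER and SUDHL4, 1950 with only the 2 groups and 5008 with the mean control, and vorinostat 2680 with only the 2 groups. The pracinostat interaction called 1599 without SUDHL4. Between the drugs at 6 h edgeR called 2 genes, DESeq2 49, limma 1, and 0 with only the 2 groups or without the block.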
